A study of Arabidopsis thaliana with 18 samples.

Results

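The genes described here are the 81 Arabidopsis thaliana genes whose transcript level was lower after hydrogen peroxide (H2O2) in all 3 genotypes of the series, out of 16548 genes measured. A gene was taken when the mean log2 level with H2O2 minus the mean untreated log2 level was -0.7 or lower, a fall of at least 1.62-fold, in the wild type, in the crf6 mutant and in the CRF6oe line alike. Of the 16548 genes, 92 met that threshold (0.556%). Of these, 9 loci named in the rule (among them AT1G51830, AT1G51840 and AT1G51850) and 2 genes of the glycosyl hydrolase and glycosyltransferase families left out by symbol (GH9C1 and UGT72E1) were set aside. The members were therefore chosen on the H2O2 and untreated arrays, and their falls with H2O2 are given as a description with no test.

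RNA was measured on 18 one-colour arrays, 2 in each of 9 groups. The groups are the wild type (WT, Col-0), the crf6 mutant and the line CRF6oe, each untreated, with H2O2 or with benzyl adenine (BA), a cytokinin. Seedlings of 10 days were first floated for 1 h on 3 mM MES buffer, and the treated ones then received 20 mM H2O2 or 2 µM BA for 6 h. DMSO at 0.2% was in all solutions, controls included. The series set out to find the target genes of CRF6, a cytokinin response factor of the AP2/ERF transcription factor family. The sources used here give neither the crf6 allele nor the promoter behind CRF6oe, and do not say whether either line is a single clone. They also give no treatment time for the untreated seedlings, and do not say whether the 2 arrays of a group come from separate cultures, so errors and p-values cover only the spread between these arrays.

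As background, H2O2 is a reactive oxygen species that plants make in the cell wall during growth and defence and that also acts as a stress signal. Class III peroxidases are secreted enzymes that use H2O2 to cross-link or loosen wall polymers. Extensins are wall proteins that are themselves cross-linked with H2O2, lipid-transfer-like proteins are small secreted cysteine-rich proteins, and germin-like proteins, osmotin and PR-1-type proteins are secreted proteins known from defence. Beta-glucosidases cleave stored glucosides after damage, and jacalin-type lectins are found with them in complexes in Arabidopsis. Roles of loci that carry no symbol are stated below at the level of the protein family, from general knowledge of Arabidopsis gene families and not from the files, and a member with no stated role is named by its locus alone.

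All 81 members are protein coding, and each was measured by 1 array feature. By locus and symbol, 7 carry a name other than the locus code: OSM34, BGLU22, BGLU21, SBT4.12, PRN, JAL34 and TUB1. By protein family 43 of the 81 were placed in 9 groups and 38 in none. The groups were formed with the values in view and get no test. They hold members only, so genes left out by name are missing from their counts, ranges and medians.

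Replicate arrays correlated at 0.977 to 0.991 over the measured genes. Arrays of CRF6oe stood apart from those of WT and crf6, with correlations of 0.917 to 0.947 across that divide against 0.948 to 0.990 among the WT and crf6 arrays. No batch is recorded, so the CRF6oe genotype and a set of arrays handled together cannot be told apart. CRF6 itself has no named feature, so the genotype labels were not checked on it. Of 26 marker genes for root hair, endodermis, guard cell, green tissue and seed, 2 were measured, the root hair expansin EXP7 and the guard cell factor FMA, so the seedling label could hardly be checked on markers. In whole seedlings, fewer cells of a type and less RNA per cell cannot be told apart.

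The median difference with H2O2 over the 81 members was -1.36 in WT, -1.31 in crf6 and -1.14 in CRF6oe on the log2 scale, where the medians of all genes were -0.02, 0.01 and 0.05. Of all genes, 3.43% were at or below -0.7 in WT, 2.80% in crf6 and 3.81% in CRF6oe. Both H2O2 arrays lay below both untreated arrays for 74 members in WT, 78 in crf6 and 77 in CRF6oe, and in all 3 genotypes for 69. In the single genotypes that order was met by 19.5%, 20.3% and 20.0% of all genes, and the share that met it in all 3 was not counted. The rule itself fixed the direction for the members. Averaged over genotypes, 70 members were lower by 1 log2 unit or more and 6 by 2 or more. In 33 members the level was lower by 1 log2 unit or more in each genotype.

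**Figure D1:**
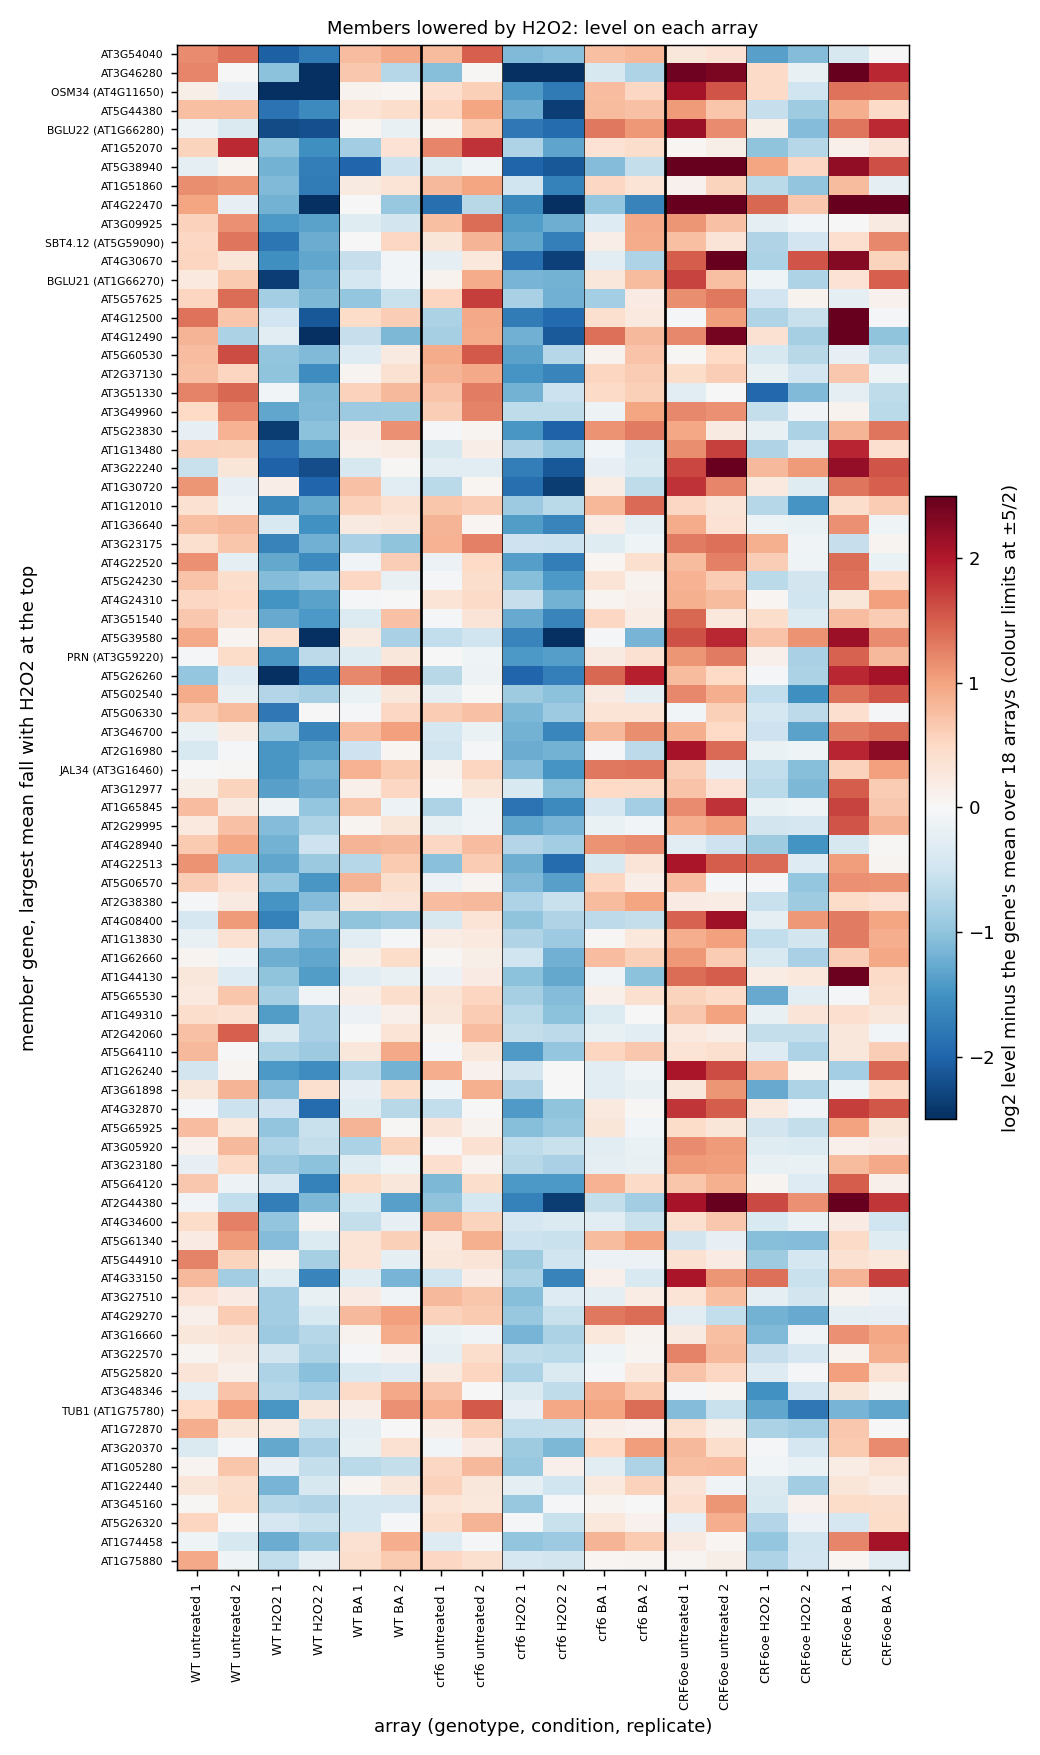
Log2 level of each of the 81 members (rows, ordered by mean fall with H2O2) on each array (columns, by genotype, condition and replicate), shown as colour relative to the gene's own mean over the 18 arrays. Within each genotype the H2O2 columns are mostly lower (blue) than the untreated ones, by the rule, and the CRF6oe columns hold the highest levels (dark red) of several members, such as AT4G22470 at 11.09 and 11.01 untreated.

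The member with the largest mean fall was AT3G54040, a gene with no stated role. Its log2 level was 8.33 and 8.54 in untreated WT and 5.12 and 5.40 with H2O2, a difference of -3.18 ± 0.22 (SE, 2 arrays against 2). In crf6 the untreated arrays read 7.96 and 8.66 and the H2O2 arrays 6.06 and 6.12 (-2.22 ± 0.22). In CRF6oe they read 7.45 and 7.52 against 5.81 and 6.07 (-1.54 ± 0.22). The groups did not overlap in any genotype, and the size of the difference was largest in WT.

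AT3G46280 came next, with a mean difference of -2.27 and an SE of 0.58 in each genotype. Its WT arrays read 8.82 and 7.58 untreated and 6.57 and 4.94 with H2O2. In crf6 they read 6.53 and 7.62, then 4.84 and 5.03. In CRF6oe they read 10.02 and 9.95, then 8.08 and 7.42. H2O2 and untreated arrays were separate in each genotype although replicates of WT lay more than 1 log2 unit apart. The H2O2 arrays of CRF6oe lay within the range of the untreated arrays of WT and crf6.

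OSM34 encodes osmotin 34, a secreted protein of the thaumatin family. Untreated WT read 9.72 and 9.39 and H2O2-treated WT 6.63 and 7.02 (-2.73 ± 0.28, SE). In crf6 the values were 10.01 and 10.18 untreated and 8.17 and 7.83 with H2O2 (-2.09 ± 0.28). In CRF6oe they were 11.66 and 11.16 untreated and 10.07 and 9.09 with H2O2 (-1.83 ± 0.28). All 3 genotypes showed separate groups, on a rising scale of levels from WT through crf6 to CRF6oe.

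Secreted proteins known from defence and FAD-linked oxidases made up a group of 5 with OSM34, and its median mean difference was -1.92. AT5G44380, of the berberine-bridge-enzyme-like oxidase family, read 6.58 and 6.58 in untreated WT and 3.98 and 4.23 with H2O2, and its differences were -2.48, -2.55 and -1.62 (each ± 0.29, SE) in WT, crf6 and CRF6oe. AT1G30720 of the same family differed by -1.36, -1.81 and -1.54 with an SE of 0.59. Its WT replicates were as far apart as 7.72 and 5.57 with H2O2, so that 1 H2O2 array exceeded 1 untreated array, at 7.34. AT5G38940, a germin-like protein gene, had its largest difference in CRF6oe, -2.56 ± 0.37, from 8.92 and 9.08 to 6.67 and 6.21. Its WT difference was -1.36 ± 0.37, from 5.44 and 5.76 to 4.52 and 3.96. The H2O2 arrays of CRF6oe thus lay above the untreated arrays of WT. AT5G57625, of the family that holds PR-1, differed by -1.95, -2.13 and -1.44 with an SE of 0.40.

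The 4 beta-glucosidase and jacalin-lectin genes had a median mean difference of -1.93. BGLU22 read 8.49 and 8.25 in untreated WT and 6.38 and 6.43 with H2O2 (-1.97 ± 0.36, SE), and the differences in crf6 and CRF6oe were -2.21 and -2.14 with the same SE. Its level in untreated CRF6oe was higher, at 10.79 and 9.79, with 8.76 and 7.53 on the H2O2 arrays. BGLU21 differed by -2.23, -1.67 and -1.66 (± 0.45, SE). The lectin gene JAL34 differed by -1.31, -1.60 and -1.04 (± 0.27, SE), and the jacalin-lectin-like AT1G52070 by -2.49, -2.56 and -0.95 (± 0.41, SE). AT1G52070 read 4.10 and 5.41 in untreated WT against 2.52 and 2.01 with H2O2, and its untreated CRF6oe level of 3.59 and 3.68 was the lowest of the untreated groups. Its H2O2 means of 2.27, 2.49 and 2.68 lay below the lower quartiles of all genes, 3.12, 3.13 and 3.41. Whether so low a level limited its difference in CRF6oe was not tested.

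**Figure D2:**
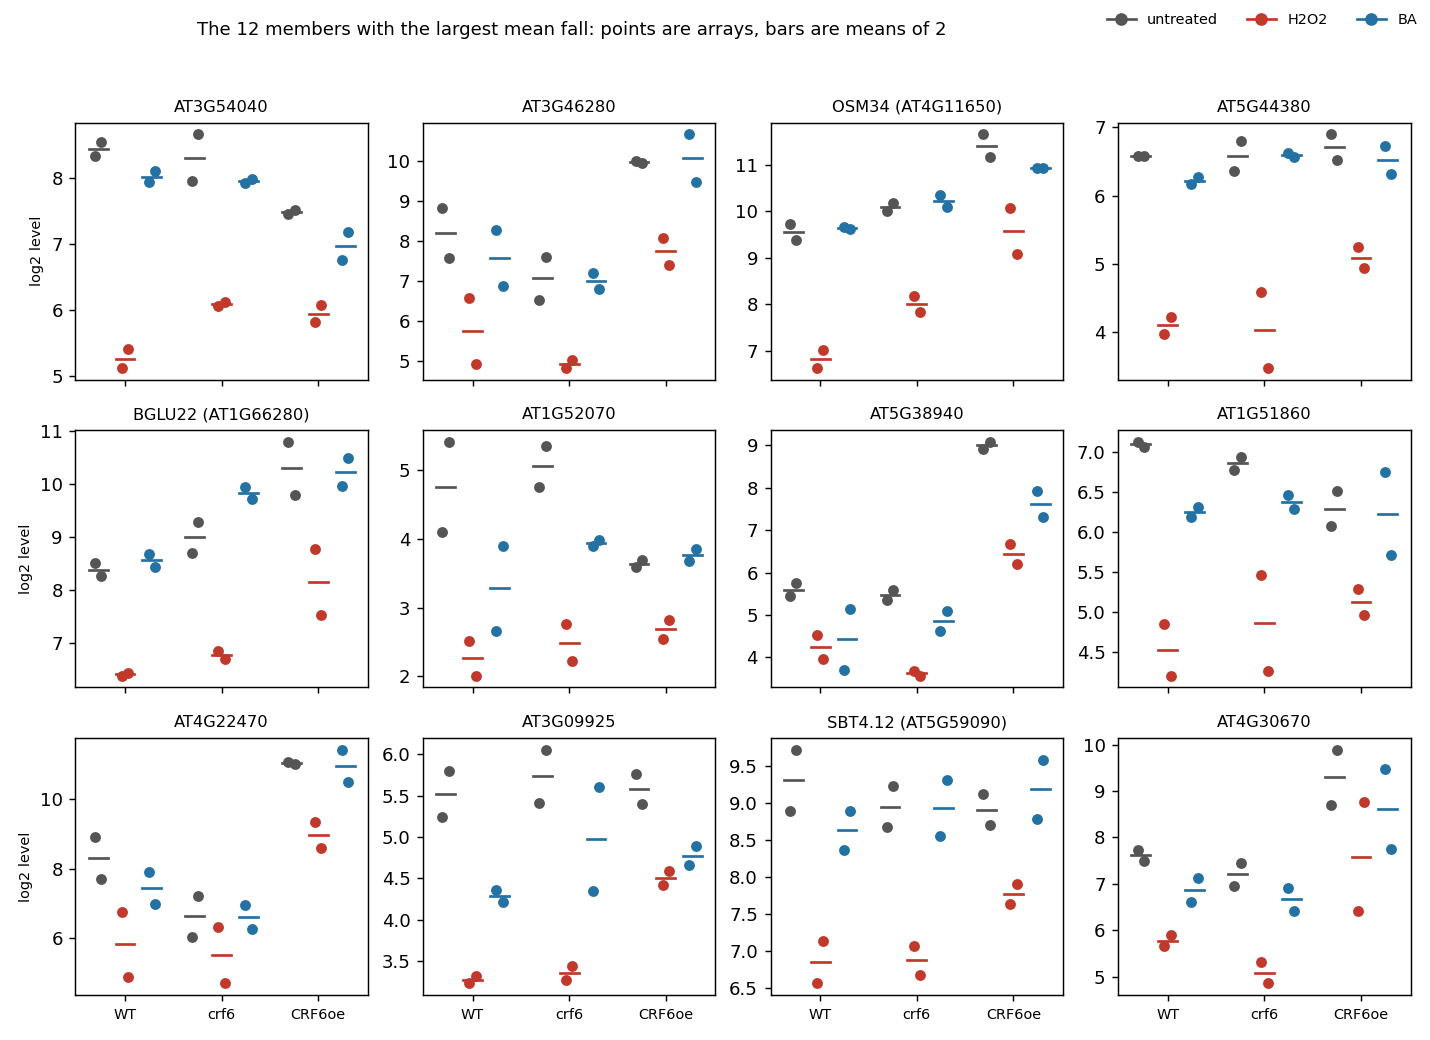
Log2 level (vertical axis) on each array of the 12 members with the largest mean fall with H2O2, 1 panel a gene, by genotype and condition, with points for arrays and bars for group means. OSM34 reads 9.72 and 9.39 in untreated WT and 6.63 and 7.02 with H2O2, and its BA arrays stay near the untreated ones at 9.67 and 9.63.

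The 6 class III peroxidase genes, AT2G37130, AT3G49960, AT2G38380, AT5G39580, AT5G64110 and AT5G64120, ran from -1.11 to -1.74 in mean difference, with a median of -1.32. AT2G37130 read 7.76 and 7.57 in untreated WT and 6.02 and 5.49 with H2O2 (-1.91 ± 0.24, SE), 7.89 and 7.98 against 5.57 and 5.39 in crf6 (-2.45) and 7.50 and 7.64 against 6.86 and 6.56 in CRF6oe (-0.86). Untreated levels of the 3 genotypes were close to each other for AT2G37130, and it was the H2O2 level that was higher in CRF6oe. AT2G38380 had the smallest SE among the members, 0.18, with differences of -1.37, -1.46 and -0.92. AT5G39580 read 10.45 and 9.57 in untreated WT, but its WT arrays with H2O2 read 9.90 and 6.79 and overlapped the untreated range. In CRF6oe the H2O2 arrays of AT5G39580 read 10.22 and 10.61, above untreated WT as a group mean. AT5G64120, named peroxidase 71 among the RefSeq synonyms, differed by -1.32, -1.10 and -0.92 with an SE of 0.51, and its neighbour AT5G64110 by -1.27, -1.31 and -0.91 with an SE of 0.28.

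Lipid-transfer-like genes numbered 6, with a median mean difference of -1.62. AT4G22470 read 8.91 and 7.70 in untreated WT and 6.74 and 4.87 with H2O2 (-2.50 ± 0.65, SE). In crf6 it read 6.03 and 7.22 against 6.31 and 4.69 (-1.12 ± 0.65), where the groups overlapped. In CRF6oe it read 11.09 and 11.01 against 9.34 and 8.59 (-2.09 ± 0.65), and these H2O2 arrays had a higher mean than the untreated WT arrays. AT4G12490 had the largest SE of the members, 1.17, and AT4G12500, AT4G22513 and AT4G22520 had SEs of 0.74, 0.72 and 0.48. AT3G22570 had an SE of 0.27, and it differed by -0.78, -0.75 and -1.51. It was dim, with a mean level of 3.01 over the 18 arrays, where the lower quartile of all genes was 3.17.

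The 4 extensin-like and Ole e 1-type wall protein genes had a median mean difference of -1.20. AT3G09925 read 5.24 and 5.80 in untreated WT and 3.23 and 3.32 with H2O2, and differed by -2.24, -2.38 and -1.08 (± 0.33, SE). AT3G16660 read 10.46 and 10.50 against 9.27 and 9.47 in WT, with differences of -1.11, -0.85 and -1.08 (± 0.31, SE). Extensin-like AT4G08400 and AT1G26240 differed on average by -1.24 and -1.15.

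Among the proteases, the subtilase gene SBT4.12 read 8.89 and 9.72 in untreated WT and 6.56 and 7.13 with H2O2, and differed by -2.46, -2.08 and -1.15 (± 0.36, SE). The aspartyl protease genes AT3G51330 and AT1G44130 differed on average by -1.73 and -1.20. The 3 genes for TRAF-like proteins, AT5G26260, AT3G20370 and AT5G26320, averaged -1.38, -0.92 and -0.83. AT5G26320 had the lowest mean level of the members over the 18 arrays, 2.63.

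Genes for receptor kinases and for TIR and C1 domain proteins, families in which many members take part in perceiving signals and pathogens, numbered 6 and had a median mean difference of -1.13. Among these members the leucine-rich-repeat receptor kinase gene AT1G51860 had the largest mean fall, from 7.12 and 7.06 to 4.85 and 4.20 in WT. It was 5.93-fold lower there, 3.99-fold in crf6 and 2.25-fold in CRF6oe (SE 0.36 on the log2 scale). The nearby AT1G51830, left out by name, differed by -3.88 in WT. The C1 domain gene AT2G44380 read 5.44 and 4.90 against 3.78 and 4.38 in WT and 7.56 and 8.01 against 7.15 and 6.66 in CRF6oe, so that its H2O2 arrays in CRF6oe lay above its untreated arrays in WT and crf6.

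The 6 members grouped as enzymes and others with a known role are AT1G12010, of the family that makes ethylene as ACC oxidase, AT4G33150 (LKR/SDH among the RefSeq synonyms, of lysine breakdown), AT1G62660, a vacuolar invertase, PRN, a pirin, the beta-tubulin gene TUB1, and AT4G34600, the precursor of a peptide that signals for the endodermal barrier. AT1G12010 was alike in the 3 genotypes, at -1.57, -1.44 and -1.51 (± 0.26, SE), from 6.40 and 5.90 to 4.41 and 4.75 in WT. PRN differed by -1.25, -1.35 and -1.55 (± 0.33, SE). TUB1 had the member value nearest to the threshold, -0.71 in CRF6oe with an SE of 0.50, and its WT arrays with H2O2 read 3.68 and 5.42. AT4G30670, in no group, was among the 12 members with the largest mean fall, at -1.84, -2.12 and -1.71 (± 0.63, SE). Its CRF6oe arrays overlapped, at 8.70 and 9.89 untreated and 6.41 and 8.77 with H2O2.

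**Figure D3:**
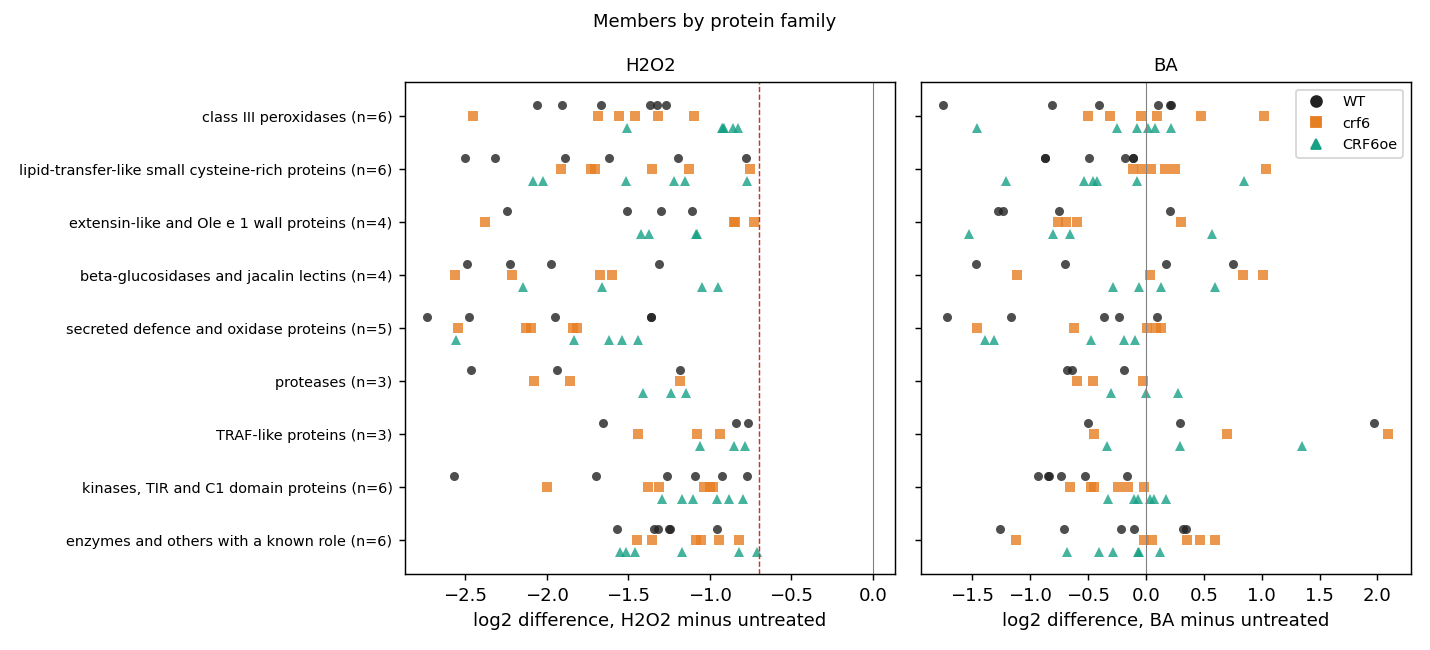
Log2 difference from untreated (horizontal axes) with H2O2, left, and with BA, right, for the members of each protein-family group (vertical axis), 1 point a member and genotype, with the threshold of -0.7 dashed. Averaged over genotypes, the group medians with H2O2 lie between -0.92 and -1.93, and with BA they lie between -0.89 for the extensin-like and Ole e 1 proteins and 0.43 for the TRAF-like proteins.

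Just inside the threshold, in the genotype where each was least lowered, lay TUB1 at -0.71, AT1G75880 at -0.72 and AT1G26240 at -0.73. Just outside lay AT5G59330 at -0.6989, AT3G21351 at -0.6984 and HRGP1 (AT3G54590), an extensin gene, at -0.6964. These gaps are far below the members' median SE of 0.328 for a difference of 2 arrays against 2, so membership near the threshold is not firm.

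The size of the members' difference with H2O2 in each genotype is described here and not tested, since the rule used it. It was largest in WT for 37 members, in crf6 for 24 and in CRF6oe for 20, with the shares over all genes not counted. The members' median SE for such a difference was 0.328, so these orders are not firm. Over all genes, limma called 0 for a difference in the H2O2 response between crf6 and WT, and 95 between CRF6oe and WT. Across the 81 members the differences in WT and crf6 correlated at r = 0.74, those in WT and CRF6oe at 0.24 and those in crf6 and CRF6oe at 0.12, against 0.69, 0.29 and 0.26 across all genes. Members are not independent replicates, the threshold trims their range, and they share the arrays. With H2O2, the CRF6oe mean lay above the WT mean for 68 members (84.0%, against 53.7% of all genes). It lay above the crf6 mean for 65 (80.2%, against 53.7%). For 14 members the CRF6oe mean with H2O2 lay at or above the untreated WT mean, among them OSM34, AT5G38940, AT4G22470, AT5G39580, AT2G16980 and AT2G44380. Of all genes, 53.7% had a CRF6oe level with H2O2 at or above that of untreated WT.

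Some members lie side by side in the order of genes of the RefSeq TAIR10.1 table. Adjacent members were BGLU21 and BGLU22, AT3G23175 and AT3G23180, and AT5G64110 and AT5G64120, whose levels over the 18 arrays correlated at r = 0.91, 0.68 and 0.79. Within 5 places lay also AT4G12490 with AT4G12500 (r = 0.81) and AT4G22513 with AT4G22520 (r = 0.88). Neighbours of 1 family can share sequence, and which of them gave the signal is then uncertain. The genes outside the 81 whose 18 values were most like the members' mean were AT1G51840 (r = 0.94), AT1G51830 (r = 0.91) and AT1G51850 (r = 0.91), all of them loci that met the threshold and were left out by name. AT1G51860, a member, is next to AT1G51850 (r = 0.90), and AT1G26240 is next to AT1G26250 (r = 0.66), likewise left out by name.

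With BA the difference from untreated was below 0 for 62 of the 81 members in WT (76.5%, against 53.8% of all genes), for 47 in crf6 (58.0%, against 51.3%) and for 48 in CRF6oe (59.3%, against 46.3%). The comparison of BA with untreated uses the same untreated arrays as the comparison that chose the members, so its values are set beside the H2O2 values with no test. The median difference over the members was -0.35 in WT, -0.05 in crf6 and -0.08 in CRF6oe, where the medians of all genes were -0.02, -0.01 and 0.02. At or below -0.7 were 21 members in WT, 8 in crf6 and 9 in CRF6oe (25.9%, 9.88% and 11.1% of the 81, with 1.81%, 1.20% and 1.72% of all genes). At or above 0.7 were 4, 10 and 4 members (1.66%, 1.69% and 1.57% of all genes). The difference was negative in all 3 genotypes for 34 members and positive in all 3 for 15, with the shares over all genes not counted. In all 3 genotypes the mean with H2O2 was below the mean with BA for 77 of the 81, the exceptions being AT1G05280, AT4G34600, AT3G23175 and AT1G26240. The rule largely fixed that order, since it took genes with low H2O2 means, and the share over all genes was not counted.

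**Figure D4:**
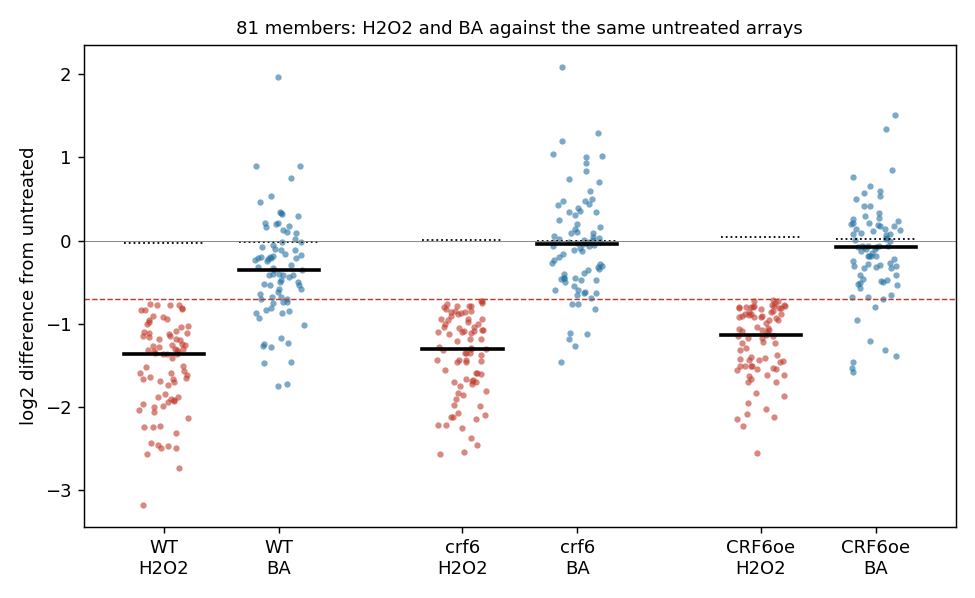
Log2 difference from the same untreated arrays (vertical axis) for each of the 81 members with H2O2 (red) and with BA (blue) in each genotype. Thick lines are the members' medians, dotted lines the medians of all genes, and the dashed line is the threshold of -0.7 that chose the members on the H2O2 values. BA points lie on both sides of 0, with medians of -0.35 in WT, -0.05 in crf6 and -0.08 in CRF6oe.

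At the low end, 4 members were at or below -0.7 with BA in each genotype: AT5G57625, AT3G23175, AT3G09925 and AT5G60530. AT5G57625, the PR-1-family gene, had the most negative mean difference with BA. It read 6.26 and 7.13 in untreated WT, 4.88 and 4.61 with H2O2 and 4.77 and 5.18 with BA, and its BA differences were -1.72, -1.46 and -1.31 (± 0.40, SE) in WT, crf6 and CRF6oe. AT3G23175 differed by -1.46, -1.27 and -1.59 (± 0.29, SE), which in CRF6oe was lower than its H2O2 difference of -0.93. The peroxidase gene AT3G49960 differed by -1.75 in WT, -0.50 in crf6 and -1.46 in CRF6oe (± 0.35, SE). Averaged over genotypes, the 6 class III peroxidases had a median BA difference of -0.07, and AT5G64120 was at 0.10, 1.02 and 0.02 in WT, crf6 and CRF6oe.

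At the high end, AT5G26260 and AT1G74458 were at or above 0.7 with BA in each genotype. The TRAF-like gene AT5G26260 read 6.91 and 7.55 in untreated WT, 5.08 and 6.06 with H2O2 and 9.08 and 9.32 with BA, and its BA differences were 1.97, 2.09 and 1.35 (± 0.34, SE). In crf6 it read 7.18 and 7.76 untreated, 5.89 and 6.17 with H2O2 and 9.31 and 9.81 with BA. In CRF6oe it read 8.66 and 8.37, then 7.83 and 7.09, then 9.76 and 9.96. Its 3 conditions were separate in each genotype, with BA the highest and H2O2 the lowest. AT1G74458 differed by 0.90, 0.93 and 1.51 (± 0.27, SE) and AT3G46700 by 0.90, 1.29 and 0.66 (± 0.29, SE) with BA.

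Both BA arrays lay below both untreated arrays for 31 members in WT, 26 in crf6 and 20 in CRF6oe (19.9%, 21.0% and 15.7% of all genes), and above for 7, 18 and 9 (16.9%, 21.2% and 19.1% of all genes). In all 3 genotypes the BA arrays lay below for 9 members and above for 4. The shares of all genes that did so in all 3 were not counted, so nothing is read from these numbers.

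The BA arrays themselves took no part in choosing the members. The genotypes were compared on them with limma, with Benjamini-Hochberg adjustment over the 16722 features paired with 1 gene. The rule did use the untreated and H2O2 arrays of each genotype, so differences between genotypes there can recur on the BA arrays. Among the members, 22 of 81 were higher in CRF6oe than in WT at an adjusted p under 0.05 (27.2%, against 11.7% of all genes) and 5 were lower (6.17%, against 12.7%). The median difference over the 81 was 0.55, against 0.02 for all genes, and 66 lay above 0. Both CRF6oe arrays lay above both WT arrays for 41 members (50.6%, against 30.5% of all genes) and below for 7 (8.64%, against 29.5%). Since the CRF6oe arrays stand apart over all genes, these counts are read against those background shares, and whether the genotype or the array set moved them cannot be told apart. As a description, the median difference between CRF6oe and WT was 0.34 on the untreated arrays and 0.68 on the H2O2 arrays, which the rule used. The counts with BA are thus not independent of the choice of members. With the CRF6oe arrays left out of the rule the members numbered 278. How far the fall asked of CRF6oe favoured genes with a high level there was not tested. The background also holds dimmer genes: the median level over the 18 arrays was 5.82 for the members and 4.83 for all genes.

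AT4G22470, of the lipid-transfer-like family, was the largest of the higher ones. It read 7.90 and 6.97 in WT with BA and 11.44 and 10.51 in CRF6oe with BA, higher by 3.54 ± 0.65 (SE) or 11.6-fold (limma adjusted p = 0.00105). The C1 domain gene AT2G44380 read 5.13 and 4.15 against 8.61 and 7.30, higher by 3.32 ± 0.42 (limma adjusted p = 6.97e-05). The germin-like AT5G38940 read 3.71 and 5.15 against 7.91 and 7.30, higher by 3.17 ± 0.37 (limma adjusted p = 3.46e-05). These 3 members were also the furthest apart between CRF6oe and WT on the untreated arrays, where AT5G38940 read 5.44 and 5.76 in WT against 8.92 and 9.08 in CRF6oe. AT3G46280 was higher by 2.50 ± 0.58 (limma adjusted p = 0.00552), which was lost without WT BA replicate 2 and without CRF6oe BA replicate 1. AT2G16980 was higher by 2.30 ± 0.27 (limma adjusted p = 3.81e-05), from 3.66 and 4.22 to 6.07 and 6.41.

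Other members that were higher included extensin-like AT4G08400 (4.27-fold), BGLU22 (3.19-fold) and OSM34 (2.45-fold), with limma adjusted p-values of 0.00468, 0.00348 and 0.00316. OSM34 read 9.67 and 9.63 in WT with BA and 10.94 and 10.93 in CRF6oe with BA, a separation wider than the gap between replicates. Of the 6 class III peroxidases 0 passed limma's test against WT, where 24.4% of all genes did. At an unadjusted p under 0.05 there were 1 of the 6 and 5811 of the 16548 genes. The peroxidase at that threshold was AT5G39580, which read 9.72 and 8.68 in WT against 11.64 and 10.68 in CRF6oe (1.96 ± 0.74, limma adjusted p = 0.0687). It was called higher with the replicate block (limma adjusted p = 0.0265), with the 6 BA arrays fitted alone (0.0229) and with the 4 arrays compared fitted alone (0.0199).

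The 5 that were lower in CRF6oe with BA were TUB1, AT4G29270, AT3G51330, AT3G54040 and AT4G28940, of which AT4G29270 was picked out after its values were seen. TUB1 read 5.29 and 6.28 in WT and 3.97 and 3.83 in CRF6oe, 3.69-fold lower (SE 0.50 on the log2 scale, limma adjusted p = 0.0123). AT3G54040, the member with the largest mean fall with H2O2, read 7.94 and 8.10 in WT and 6.75 and 7.17 in CRF6oe (-1.06 ± 0.22, limma adjusted p = 0.00288). AT3G51330, the aspartyl protease gene, differed by -1.13 ± 0.34 (limma adjusted p = 0.0251). AT4G29270 read 7.49 and 7.71 in WT and 6.44 and 6.48 in CRF6oe (-1.14 ± 0.22, limma adjusted p = 0.00146). Without WT BA replicate 2 and without CRF6oe BA replicate 2 the calls of TUB1 and AT3G51330 were lost. AT3G51330 also lost its call without WT BA replicate 1, and AT4G28940 without CRF6oe BA replicate 1.

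**Figure D5:**
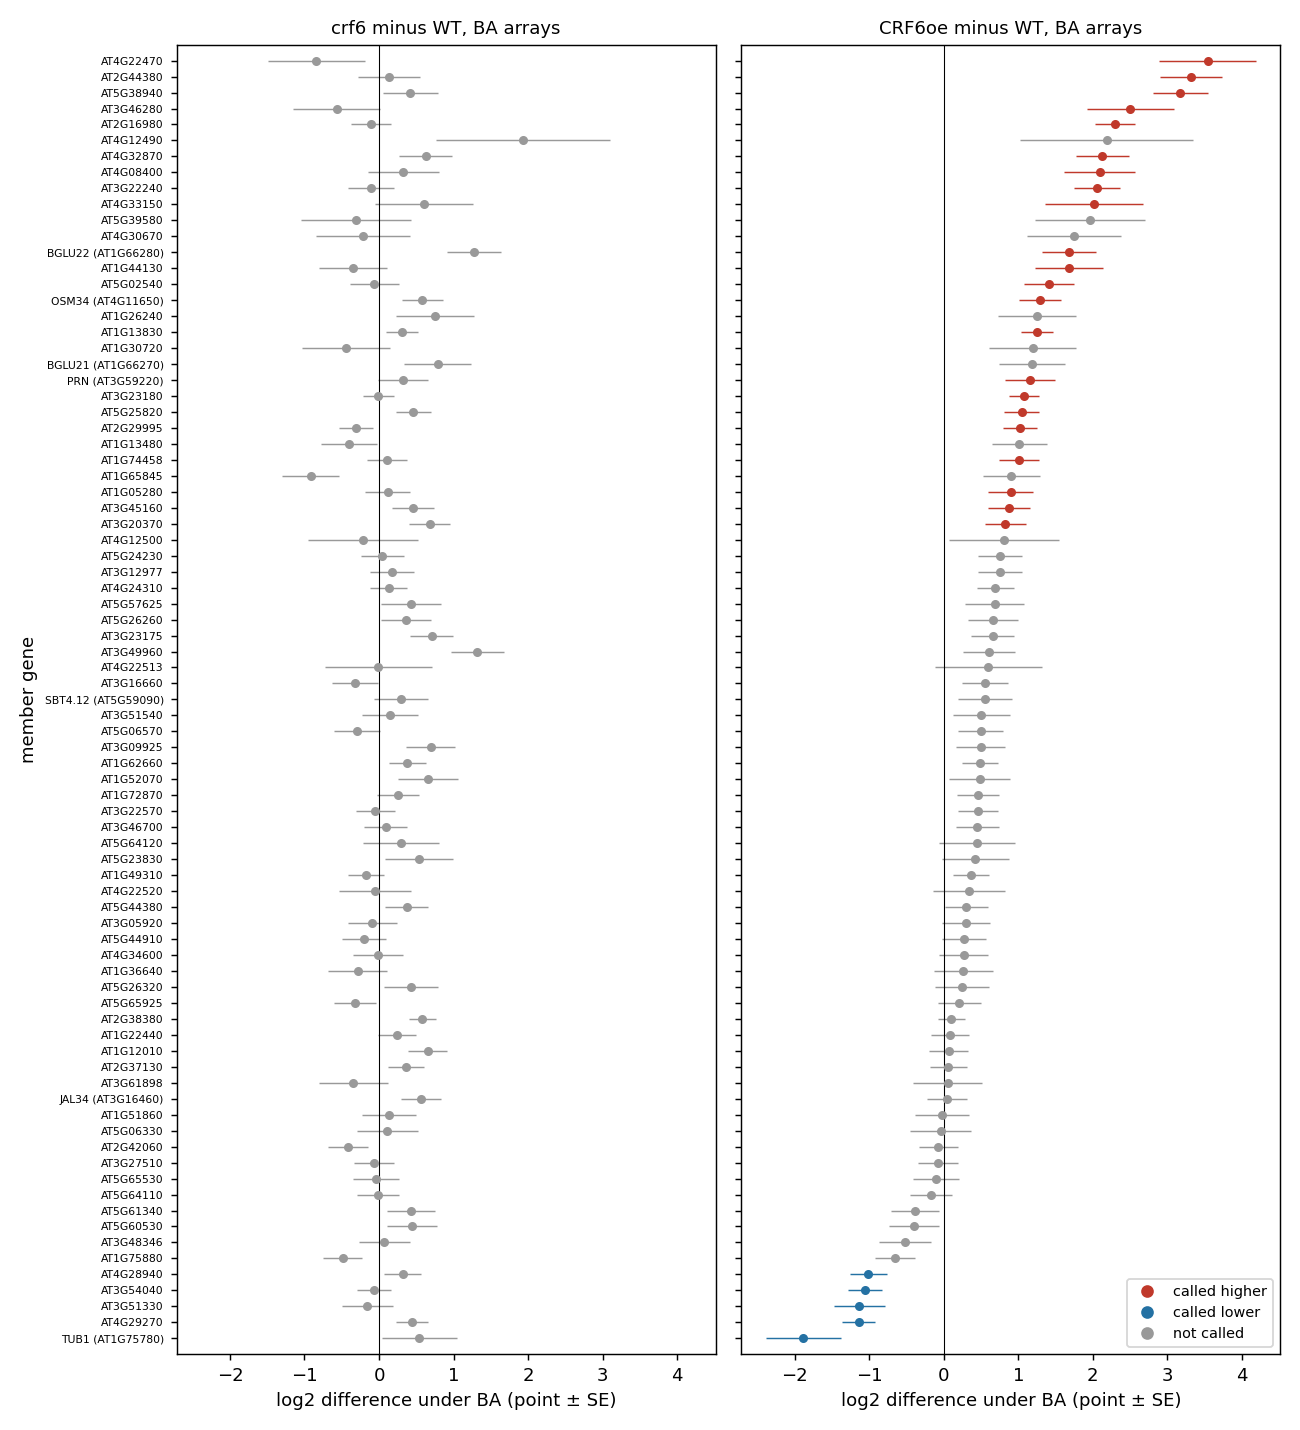
Log2 difference on the BA arrays (horizontal axes, point ± SE, 2 arrays against 2) of crf6 minus WT, left, and CRF6oe minus WT, right, for each of the 81 members (rows), coloured where limma's adjusted p was under 0.05. In CRF6oe 22 members were called higher and 5 lower, and in crf6 0 were called.

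Against crf6, CRF6oe was higher with BA in 19 members (23.5%, against 12.9% of all genes) and lower in 5 (6.17%, against 14.5%), by the same limma test. These counts too are not independent of the choice of members. In either direction 24 were called (29.6%, against 27.4% of all genes), and against WT 27 (33.3%, against 24.4%). The 5 lower ones were again TUB1, AT4G29270, AT3G51330, AT3G54040 and AT4G28940. The call of AT3G51330 against crf6 (limma adjusted p = 0.0470) was lost under 7 of 11 alternatives: both other scalings, all features tested, and each omission of a single array. AT5G39580 was called higher against crf6 (2.26 ± 0.74, limma adjusted p = 0.0334), a call lost with all features tested and without crf6 BA replicate 2 or either CRF6oe BA replicate. Both CRF6oe arrays lay above both crf6 arrays for 39 members (48.1%, against 32.6% of all genes) and below for 13 (16.0%, against 32.1%). Leaving out crf6 BA replicate 2 took the number called in either direction from 24 to 15. AT4G22470 again differed most, at 4.38 ± 0.65 (limma adjusted p = 0.000186), and TUB1 was again lower, at -2.42 ± 0.50 (limma adjusted p = 0.00218). BGLU22 and OSM34 did not pass against crf6, with differences of 0.40 ± 0.36 and 0.71 ± 0.28 (limma adjusted p = 0.467 and 0.0715).

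Between crf6 and WT with BA, limma called 0 of the 81 members and 0 of the 16548 genes. At an unadjusted p under 0.05 there were 7 members and 746 genes. The members' median difference was 0.13, against 0.005 for all genes. Both crf6 arrays lay above both WT arrays for 26 members (32.1%, against 20.4% of all genes) and below for 8 (9.88%, against 17.6%). As above, these values are not independent of the choice of members, since the rule used other arrays of both genotypes.

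Genes of wall synthesis, root hair growth, the endodermal barrier, iron and nitrate uptake and related themes, which the rule did not choose, were looked at in 12 lists. Of their genes 17 were measured, in 7 of the lists, and none of the 17 is a member. The lists do not hold every gene of a theme: member AT4G34600, named above for the endodermal barrier, is not among the 17. With H2O2 in WT, 1 of the 17 passed limma's test, where 2.87% of all genes did: CSLC04 (AT3G28180), a cellulose-synthase-like gene of xyloglucan backbone synthesis, was higher by 0.98 ± 0.22 (limma adjusted p = 0.0273). That call was lost without WT untreated replicate 1 or 2 and without WT H2O2 replicate 2. In crf6 and CRF6oe 0 of the 17 passed limma's test, where 1.95% and 2.62% of all genes did. At an unadjusted p under 0.05 there were 4 of the 17 in WT, 5 in crf6 and 4 in CRF6oe. The shares of all genes at that unadjusted threshold were not counted, so nothing is read from these numbers. EXP7 and EXP18, expansins of root hairs, differed by -0.75 and -0.91 in WT and did not pass (limma adjusted p = 0.148 and 0.164).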

How the data were processed

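Biotin-labelled cRNA was made from total RNA with an oligo-dT primer, per the labels' protocols, and measured on 18 one-colour arrays. The authors deposited 1 normalized value per feature and array. The normalization is not given in the sources used here, nor is the scale, so log2 was inferred from the range of the deposited values (array medians of 4.63 to 4.98, highest value 14.26). Signal over background and batch were not analysed here.

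Of 38408 features, 16722 were paired with 1 gene by the platform's probe table, 759 with several, and 20927 are not listed there. RefSeq TAIR10.1 was used for names and gene order (16574 features matched, 148 did not). Where a gene had several features the brightest one was kept, giving 16548 genes. Coordinates were not used, since the build behind the probe table is not stated, and no sequence is shown.

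The fit was limma 3.58.1 in R 4.3.3, with 9 group means on 18 arrays, 9 residual and 5.63 prior degrees of freedom, two-sided contrasts and Benjamini-Hochberg adjustment over the 16722 features, and it was tested on simulated data. Errors are SEs of this fit. Members and lists were chosen with earlier results of these data known. Genes are named by rule: the 12 members with the largest mean fall, 3 on each side of the threshold, 3 at each end of the untreated CRF6oe to WT difference and of the BA difference, up to 5 called in each comparison of genotypes, up to 4 of each family, and the 3 genes most like the members' mean (Pearson's r over 18 arrays). AT1G30720, AT1G05280, AT4G29270, AT5G60530 and further locus names given with a count or a neighbour stand outside that rule and were picked after their values were seen.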

Additional observations from a re-analysis of the deposited data

How the results depend on the processing

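The number of members depended on the threshold: it was 33 at -1 and 162 at -0.5. With the CRF6oe arrays left out of the rule, an alternative chosen after seeing the data, it was 278. Without single arrays it ran from 69 to 95, after quantile normalization it was 92 (75 shared with the 81), and with arrays centred on their median 81 (78 shared). The members called between CRF6oe and WT with BA numbered 19 to 27 without single arrays, and 23 to 29 under the other alternatives. Between CRF6oe and crf6 they numbered 15 to 25 without single arrays, the lowest without crf6 BA replicate 2, and 20 to 28 otherwise. Between crf6 and WT the count was 0 under each alternative run. Of 16 named members called between CRF6oe and WT, 8 kept their call under each of the 11 alternatives: BGLU22, OSM34, AT2G16980, AT2G44380, AT3G54040, AT4G08400, AT4G22470 and AT5G38940. Of the 17 list genes, the number called with H2O2 in WT was 0 when the 4 arrays compared were fitted alone and 0 to 1 without single arrays. In crf6 and CRF6oe it was 0 throughout. Signs were followed for 59 differences between genotypes of named members. These were all 44 for CRF6oe against WT and the 15 called ones for CRF6oe against crf6. Uncalled differences between CRF6oe and crf6, and those between crf6 and WT, were not followed. Of the 59, 12 changed sign under some alternative, none of them called in the reported fit, all for CRF6oe against WT. Without single arrays these ran from -0.028 to 0.17 for AT1G12010, -0.54 to 0.50 for AT1G51860, -0.14 to 1.097 for AT1G52070, -0.33 to 0.45 for AT2G37130, -0.26 to 0.11 for AT2G42060, -0.19 to 0.27 for JAL34, -0.17 to 4.54 for AT4G12490, -0.59 to 2.20 for AT4G12500, -0.44 to 1.12 for AT4G22520, -0.081 to 0.61 for AT4G34600, -0.19 to 0.68 for AT5G26320 and -0.35 to 0.13 for AT5G65530. Centring arrays on their median gave 0.0038 for AT1G51860, and quantile normalization gave -0.054 for JAL34. Where a count or sign moved, the cause was not tested. With the replicate number as a block (a replicate block), 28, 27 and 0 members were called for CRF6oe against WT, CRF6oe against crf6 and crf6 against WT, and 1 list gene in WT. Deviations of same-numbered arrays correlated at -0.15 to 0.12 between genotypes, where the comparisons of members lie, at 0.22 to 0.33 among the 3 conditions of WT, at 0.04 to 0.06 within crf6 and at -0.20 to 0.17 within CRF6oe. The numbers were thus not taken to pair samples between genotypes, and in WT the shared deviations are a hint from the data, not from the design. The replicate block was 1 effect shared by all genotypes, so it was not fitted to a pairing in WT alone.

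With 2 arrays a group, the members' SE for a difference of 2 arrays against 2 had a median of 0.328 and ran from 0.182 to 1.17, against a median of 0.229 for all genes. Members with a high SE, such as AT4G12490 and AT5G39580, are the least certain.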

Other observations

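Replicates were ordered alike across conditions for some members. In WT, replicate 1 lay above replicate 2 in all 3 conditions for 11 of the 81 members and below it for 23, where 18.4% and 19.2% of all genes did so. AT4G22470, AT3G46280 and AT5G39580 are among the 11, and AT3G46280 read 8.82 and 7.58 untreated, 6.57 and 4.94 with H2O2 and 8.28 and 6.88 with BA. In CRF6oe, replicate 1 lay above replicate 2 throughout for 14 members (1923 of the 16548 genes) and below it for 5 (1982 genes). In crf6, replicate 1 lay above replicate 2 for 3 members (2441 genes) and below it for 15 (2251 genes). The labels do not say what a replicate number stands for, and these orders were not tested. In WT, deviations of same-numbered arrays correlated at 0.22 to 0.33 over the conditions.

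AT4G12490 and AT4G12500, neighbouring lipid-transfer-like genes, had the widest gap between replicates in CRF6oe with BA, at 9.31 and 4.60 and at 7.35 and 4.56.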
